A study of Mus musculus with 2 samples.

Results

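The 10 hypoxia-responsive genes described here are Hif1a, its oxygen-sensing hydroxylases Egln1 and Egln3, and the reported target genes Vegfa, Adm, Bnip3, Bhlhe40, Ndrg1, Ankrd37 and P4ha1. They were taken by gene symbol from the deposited expression table, which holds 26037 genes, and each of the 10 had its own row. The table compares an MMP9_KO library with a Control library, both made from cultures of C57BL/6 mouse bone marrow cells (mice 6 to 8 weeks old) labelled as primary osteoclast cells. In both, the medium held 10% FBS and M-CSF was given at 5 ng/ml for expansion. Non-adherent marrow cells spent 3 days in M-CSF at 30 ng/ml to give macrophages. RANKL, which turns macrophages into osteoclasts, was then added for 3 days. Polyadenylated RNA was sequenced once per genotype, so n = 1 in each group. The column headings add "sh" to the MMP9_KO library and "NCsh" to the Control library. Whether Mmp9 was deleted or silenced, and how many animals gave the cells, is not stated in the labels.

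Cells read oxygen through hydroxylases of the EGLN family. With oxygen present, these enzymes mark the HIF alpha proteins for ubiquitination by the VHL complex and degradation. When oxygen is low the alpha subunit, of which Hif1a encodes one form, persists, pairs with ARNT and activates genes through short DNA elements with an RCGTG core. The alpha subunit is controlled largely as a protein, so its transcript level does not report its activity. Osteoclasts work in poorly oxygenated bone, and low oxygen is known to favour their formation in culture.

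Of the 10 genes, 4 were lower by at least 2-fold in MMP9_KO (Bhlhe40, Adm, Bnip3 and Ankrd37), 0 were higher by that much and 5 were within 2-fold (Hif1a, Egln1, Vegfa, Ndrg1 and P4ha1). Egln3 was too low to be compared. A gene was compared when its level averaged at least 1 over both libraries, and it counted as lower or higher when its log2 ratio, MMP9_KO over Control with 1 added to each level, was at least 1 in size. Of all 11126 compared genes, 9.58% were lower and 4% were higher by this rule, 13.6% in all. The share of called genes that were higher, 29.5%, was 49.6% when the libraries were scaled to equal sums. Adm and Ankrd37 passed the level filter only through the Control library, so a lower value in MMP9_KO was partly built into the filter, and the count of 4 is a description of these libraries. The set did not move as a block: the median log2 ratio of the 9 compared members was -0.23, beside -0.16 over all compared genes. With 1 library per genotype no test between genotypes was possible.

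Levels are normalised read counts, that is, read numbers scaled by a constant for each library and not divided by transcript length. The intervals in parentheses are exact 95% intervals from the read numbers. They cover counting error only, since each genotype had 1 library. Reads carried no molecular identifiers and cannot be taken as separate molecules, so the intervals may be too narrow even for that error. The MMP9_KO library held 17741432 reads and the Control library 20678441. Mmp9 itself stood at 3.87 in MMP9_KO and 139.4 in Control. All 9 osteoclast markers examined, Mmp9 among them, were lower in MMP9_KO by at least 2-fold, beside 9.58% of all compared genes. Their summed level was 219 in MMP9_KO and 6446 in Control, and none was at 0. Of these markers, Itgb3, Oscar and Calcr passed the level filter only through Control. Of 8 macrophage markers 5 were higher and 1 was lower by at least 2-fold, beside 4% and 9.58% of all compared genes. The summed level of the macrophage markers was 1362 in MMP9_KO and 1008 in Control. Fcgr1 and Mrc1 had no read in Control, so Fcgr1 passed the level filter only through MMP9_KO. The part of this shift in the hypoxia-gene differences was not tested. In such bulk samples, fewer cells of a type and less RNA per cell cannot be told apart. Markers of 6 other cell types were near 0: their summed levels ran from 0 to 0.451 in MMP9_KO and from 0 to 1.34 in Control, and 24 of 36 genes in MMP9_KO and 26 of 36 in Control had no read.

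**Figure D1:**
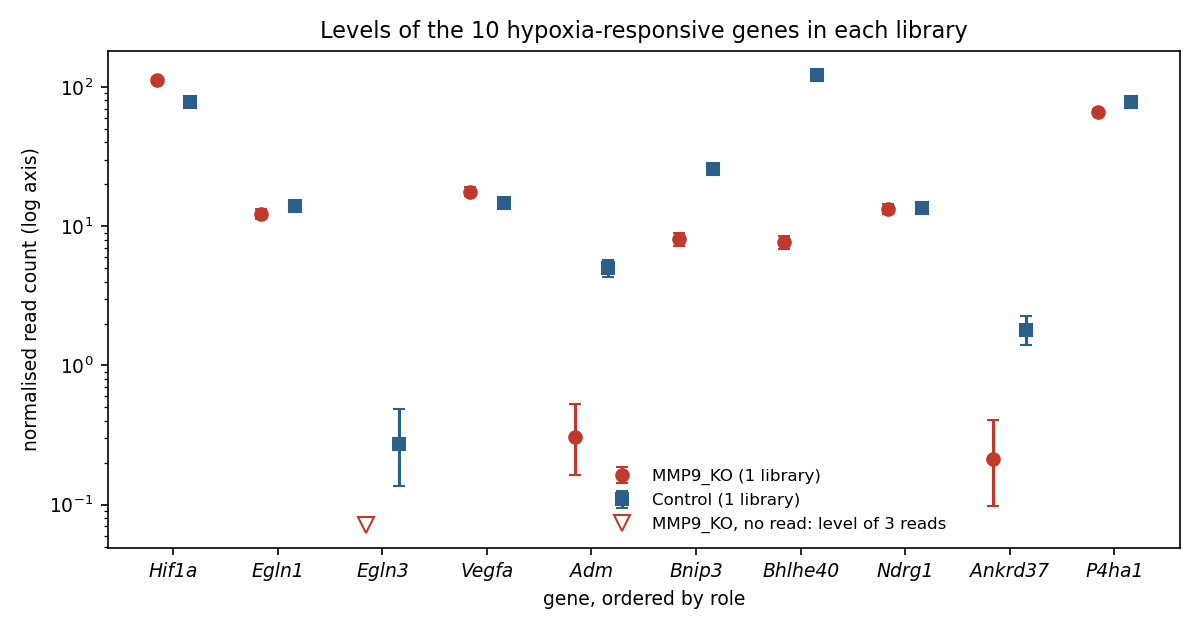
Normalised read counts (log axis) of the 10 genes, ordered by role, in the MMP9_KO library (red circles) and the Control library (blue squares), with exact 95% counting intervals; the open triangle marks the level of 3 reads where MMP9_KO had none. Bhlhe40, Adm, Bnip3 and Ankrd37 lie well below their Control values, at 7.67 against 122, 0.309 against 5.02, 8.08 against 25.7 and 0.214 against 1.79, whereas Ndrg1 lies at 13.4 against 13.5.

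Among the oxygen-sensing members, the transcript of the transcription factor subunit was somewhat higher and those of its hydroxylases were not. Hif1a (ENSMUSG00000021109) had a level of 112 in MMP9_KO (4730 reads) and 78.0 in Control (3139 reads), which is 1.44-fold higher in MMP9_KO (1.38 to 1.51). Its log2 ratio of 0.52 exceeded that of 90.02% of compared genes and stayed positive, between 0.49 and 0.80, under every processing alternative tried. An antisense transcript, Gm15283, shares 330 exon bases with Hif1a and stood at 16.1 in MMP9_KO and 11.2 in Control. The use of strand in counting is not given, so reads of the pair may not be fully separated. A protein-coding gene on the same strand, Gm49321, shares 148 exon bases with Hif1a and has no row of its own. How reads shared with Gm49321 were counted is not known.

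Egln1 (ENSMUSG00000031987) encodes the hydroxylase PHD2, the main brake on HIF alpha when oxygen is plentiful. Its level was 12.2 in MMP9_KO (515 reads) and 13.9 in Control (559 reads), a fold of 0.881 (0.780 to 0.995). The log2 ratio of -0.17 lay at the middle of all genes, above 49.3% of them, and its sign depended on scaling and centring: it ran from -0.18 to 0.21 over the alternatives. Egln3 (ENSMUSG00000035105), which encodes the hypoxia-inducible hydroxylase PHD3, had 0 reads in MMP9_KO and 11 in Control. A count of 0 allows a level of up to 0.0713 in MMP9_KO, taking 3 reads as the limit, against 0.273 in Control, so Egln3 was at least 3.84-fold lower against that limit. With the counting error of the 11 Control reads included, the exact interval bounds the difference at 2.63-fold or more. At this depth Egln3 was barely detected in either library.

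The secreted factors Vegfa and Adm, both classical HIF targets, differed in opposite directions. Vegfa (ENSMUSG00000023951), the angiogenic growth factor, had a level of 17.7 in MMP9_KO (747 reads) and 14.6 in Control (588 reads), 1.21-fold higher in MMP9_KO (1.09 to 1.36). Its log2 ratio was 0.26, above 79.97% of compared genes, and it was positive under every alternative tried. Adm (ENSMUSG00000030790), which encodes the vasodilator peptide adrenomedullin, had a level of 0.309 in MMP9_KO (13 reads) and 5.02 in Control (202 reads). That is 16.3-fold lower in MMP9_KO, with a wide interval from 9.29 to 31.1. The log2 ratio of -2.20 lay above only 1.52% of compared genes. With 5 added to each level in place of 1, the log2 ratio was -0.92 and Adm no longer counted as lower.

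Bhlhe40 had the lowest log2 ratio of the compared members with 1 added to each level, while the folds of Bhlhe40 and Adm without that addition had overlapping intervals. It encodes a basic helix-loop-helix transcriptional repressor that responds to hypoxia and to many other stimuli. Bhlhe40 (ENSMUSG00000030103) had a level of 7.67 in MMP9_KO (323 reads) and 122 in Control (4901 reads), 15.9-fold lower in MMP9_KO (14.2 to 17.8). Its log2 ratio of -3.82 lay above only 0.243% of compared genes and was -3.32 or lower in each of the 11 settings, the reported one included. The antisense gene 0610040F04Rik, which shares 118 exon bases with it, stood at 0.143 in MMP9_KO and 1.69 in Control.

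Bnip3 and Ankrd37 were lower as well. Bnip3 (ENSMUSG00000078566), which encodes a mitochondrial outer membrane protein that serves as a receptor for mitophagy, had a level of 8.08 in MMP9_KO (340 reads) and 25.7 in Control (1035 reads). This is 3.18-fold lower in MMP9_KO (2.81 to 3.61), and its log2 ratio of -1.56 stayed between -1.67 and -1.23 over the alternatives. Bnip3 was the only member with near-identical transcripts of other genes: 5 annotated genes match at least 200 bases of it at 95% identity or more. One of them, Gm45507, is the antisense gene of the Bnip3 locus, with 504 shared exon bases. None of the 5 has a row in the table, so how reads shared with them were counted is not known. Ankrd37 (ENSMUSG00000050914), an ankyrin-repeat gene known as a HIF target, had a level of 0.214 in MMP9_KO (9 reads) and 1.79 in Control (72 reads), 8.37-fold lower in MMP9_KO (4.17 to 19.0). Its mean of 1.001 was just above the level filter. The call of Ankrd37 was lost after centring in bins of transcript GC content (log2 ratio -0.98) or length (-0.82) and with 5 added to each level (-0.38). Ankrd37 also shares 349 exon bases with Lrp2bp on the opposite strand, which stood at 0.0475 in MMP9_KO and 0.571 in Control, and 57 bases with Ufsp2, at 29.9 in MMP9_KO and 35.7 in Control.

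Ndrg1 and P4ha1 were close to equal between the libraries. Ndrg1 (ENSMUSG00000005125), a stress-inducible gene widely used as a hypoxia marker, had a level of 13.4 in MMP9_KO (564 reads) and 13.5 in Control (542 reads), a fold of 0.995 (0.883 to 1.12). On the opposite strand, Gm17035 shares 419 exon bases with Ndrg1 and stood at 1.92 in MMP9_KO and 2.01 in Control. Gm2895, also on that strand, shares 137 exon bases with Ndrg1 and stood at 0.143 in MMP9_KO and 0.273 in Control. P4ha1 (ENSMUSG00000019916) encodes the catalytic subunit of collagen prolyl 4-hydroxylase. Its level was 66.5 in MMP9_KO (2800 reads) and 78.0 in Control (3139 reads, the same number as for Hif1a), a fold of 0.853 (0.810 to 0.898). The sign of both log2 ratios depended on scaling, with ranges of -0.0075 to 0.26 for Ndrg1 and -0.23 to 0.055 for P4ha1.

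**Figure D2:**
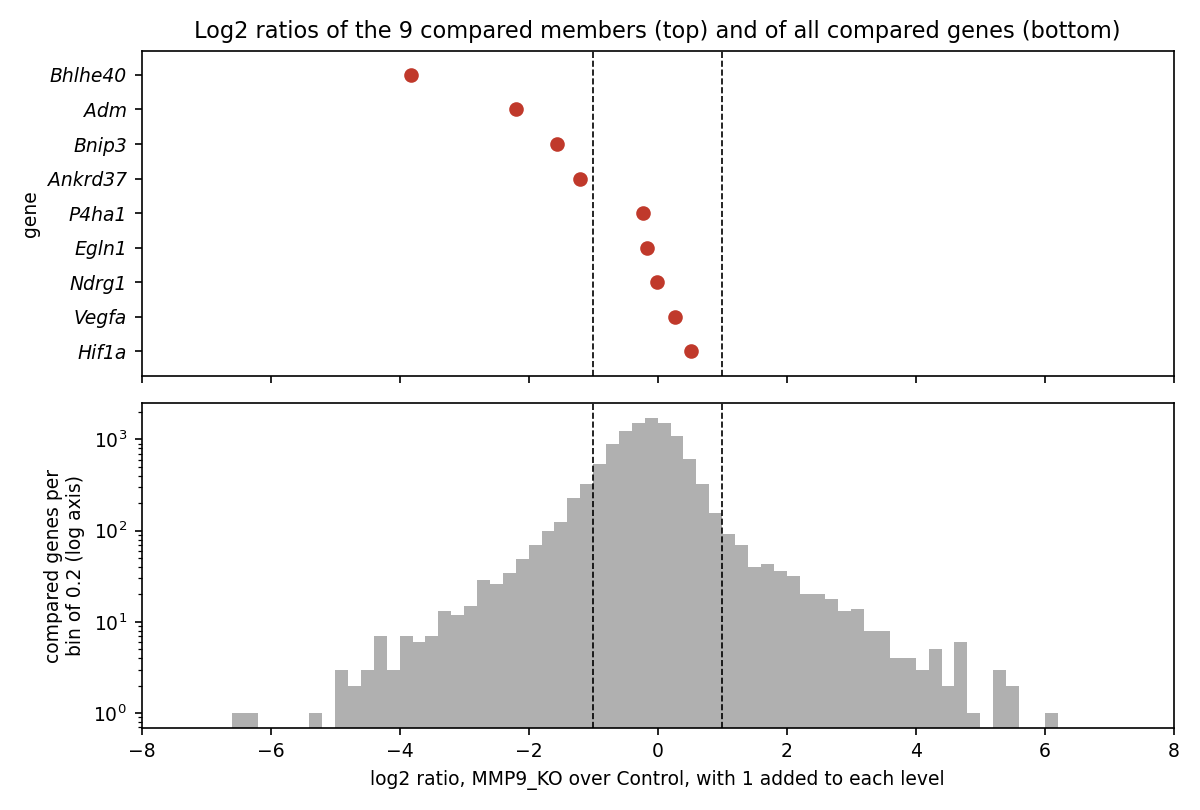
Log2 ratios (MMP9_KO over Control, with 1 added to each level) of the 9 compared members, 1 row per gene (top), above a histogram of the ratios of all 11126 compared genes (bottom, log axis); dashed lines mark a 2-fold difference. Bhlhe40 at -3.82 lies in the far lower tail, Adm, Bnip3 and Ankrd37 lie below the lower line, and the other 5 lie between the lines, from -0.23 to 0.52.

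Divided by the length of the longest annotated transcript, the levels of different genes can be set side by side, and the order of the members differed between the libraries. In MMP9_KO, Hif1a stood first at 23.8 per kilobase, followed by P4ha1 at 16.5, Vegfa at 5.14, Bnip3 at 4.60, Egln1 at 3.40, Ndrg1 at 3.31 and Bhlhe40 at 2.46. Ankrd37 at 0.231 and Adm at 0.222 followed far below, and Egln3 was at 0. In Control, Bhlhe40 stood first at 39.1 per kilobase, ahead of P4ha1 at 19.3, Hif1a at 16.5 and Bnip3 at 14.6. Vegfa (4.23), Egln1 (3.86), Adm (3.61), Ndrg1 (3.33), Ankrd37 (1.93) and Egln3 (0.103) came next. Bhlhe40 thus ranked 7 in MMP9_KO and 1 in Control. Neighbours whose counting intervals overlapped were Vegfa and Bnip3, Egln1 and Ndrg1, and Ankrd37 and Adm in MMP9_KO, and the run from Vegfa to Ndrg1 in Control. Per kilobase, the ratio of Hif1a to Bhlhe40 was 9.65 in MMP9_KO and 0.422 in Control. The ratio of Hif1a to Egln1 was 6.99 in MMP9_KO and 4.27 in Control.

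**Figure D3:**
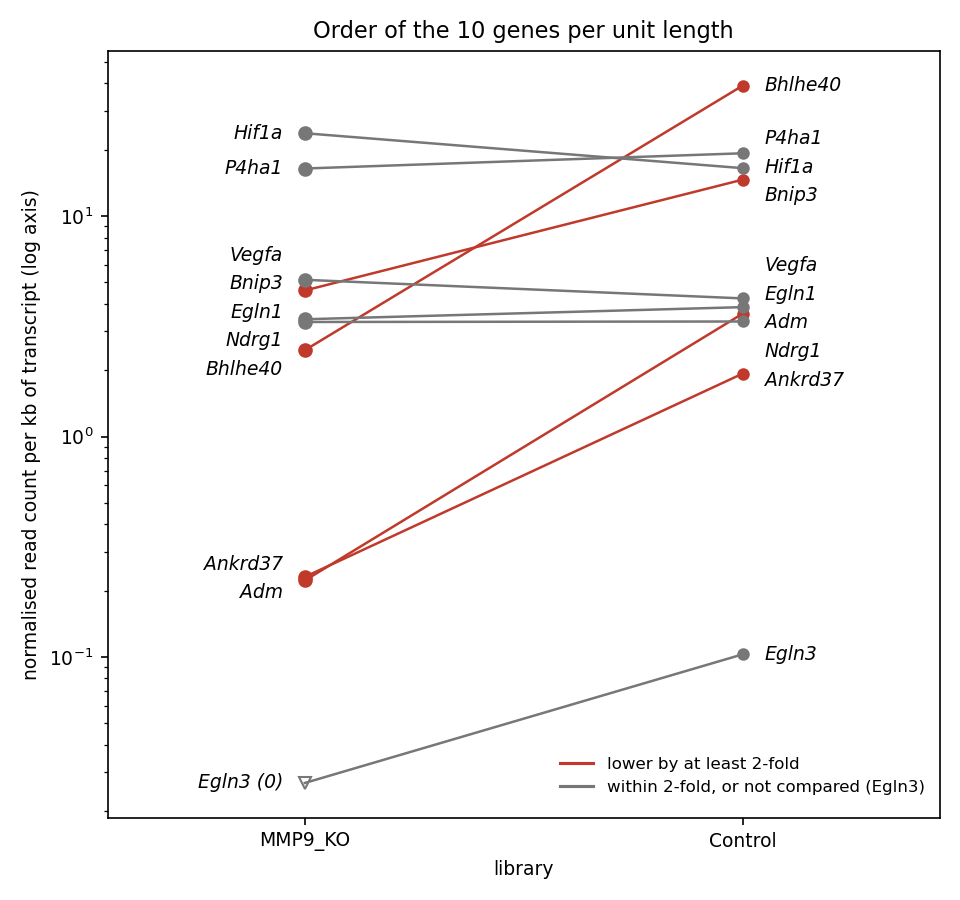
Normalised read count per kilobase of transcript (log axis) of the 10 genes in the MMP9_KO library (left) and the Control library (right), with a line joining each gene; red lines are the 4 genes lower by at least 2-fold, and the open triangle is the level of 3 reads for Egln3. Bhlhe40 goes with 2.46 in MMP9_KO and 39.1 in Control, crossing the nearly level lines of the genes within 2-fold.

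The members lie on 7 chromosomes. Their transcripts run from 927 to 4724 bases and from 41.3% to 56.0% GC. Of the 4 lower genes, Bhlhe40 has 49.4%, Adm 50.7% and Ankrd37 51.1% GC, close to the 50.9% of Vegfa and the 50.4% of Ndrg1, which were within 2-fold. Bnip3 has 41.6%, close to the 41.3% of Hif1a. Of all compared genes with a GC content like that of Bnip3, 5.05% were lower by at least 2-fold, and of those like Adm and Ankrd37 10.7% were.

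The promoter sequences show whether the letters of the hypoxia response core occur near the start sites of members that were lower and of members within 2-fold. Windows from 250 bases before to 50 after the start site were available in RefSeq (GRCm38.p6, another build than the mm9 used for alignment) for 8 of the 10 genes, with 9 windows in all. Bhlhe40, which was lower, and Ndrg1, which was within 2-fold, had no window. ACGTG and GCGTG were searched on both strands. Shown 5′ to 3′ along the gene are the windows of 3 lower genes, Bnip3, Ankrd37 and Adm, and of Hif1a and P4ha1, which were within 2-fold. Capitals mark matches on either strand, so that a match on the reverse strand reads CACGT or CACGC.
Bnip3, chr7:138909457-138909756, minus strand: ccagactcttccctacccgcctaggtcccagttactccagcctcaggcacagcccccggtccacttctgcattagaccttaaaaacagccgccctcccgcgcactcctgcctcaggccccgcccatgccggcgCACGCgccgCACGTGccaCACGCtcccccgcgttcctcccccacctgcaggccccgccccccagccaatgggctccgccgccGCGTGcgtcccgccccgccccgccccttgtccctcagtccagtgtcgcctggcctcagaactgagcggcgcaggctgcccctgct
Ankrd37, chr8:45999801-46000100, minus strand: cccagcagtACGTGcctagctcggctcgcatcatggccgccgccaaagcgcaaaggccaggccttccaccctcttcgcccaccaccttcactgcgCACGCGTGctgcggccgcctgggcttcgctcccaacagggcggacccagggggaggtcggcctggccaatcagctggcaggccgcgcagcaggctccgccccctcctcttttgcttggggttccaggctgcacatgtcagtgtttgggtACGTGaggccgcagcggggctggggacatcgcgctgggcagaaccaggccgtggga
Adm, chr7:110627407-110627706, plus strand: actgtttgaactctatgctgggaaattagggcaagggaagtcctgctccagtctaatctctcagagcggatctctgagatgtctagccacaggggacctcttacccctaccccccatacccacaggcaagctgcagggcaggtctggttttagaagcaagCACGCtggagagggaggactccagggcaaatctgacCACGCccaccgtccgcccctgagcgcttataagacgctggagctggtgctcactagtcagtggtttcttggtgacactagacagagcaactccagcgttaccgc
Hif1a, chr12:73907617-73907916, plus strand: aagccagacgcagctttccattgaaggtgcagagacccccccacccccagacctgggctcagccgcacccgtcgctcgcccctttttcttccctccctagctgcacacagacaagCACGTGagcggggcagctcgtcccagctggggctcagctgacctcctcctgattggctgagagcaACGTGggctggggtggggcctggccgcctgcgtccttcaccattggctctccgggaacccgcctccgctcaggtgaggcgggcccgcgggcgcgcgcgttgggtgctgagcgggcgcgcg
P4ha1, chr10:59323046-59323345, plus strand: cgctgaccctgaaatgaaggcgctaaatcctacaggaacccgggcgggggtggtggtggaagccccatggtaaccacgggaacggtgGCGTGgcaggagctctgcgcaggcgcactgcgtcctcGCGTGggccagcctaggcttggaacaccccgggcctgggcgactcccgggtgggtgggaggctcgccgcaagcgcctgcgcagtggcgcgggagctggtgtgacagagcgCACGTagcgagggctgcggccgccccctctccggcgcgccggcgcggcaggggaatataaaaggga

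The Bnip3 window holds 5 matches, with ACGTG matching on both strands of 1 CACGTG, which begins 108 bases before the start site. CACGTG is also the E-box to which BHLHE40 and other basic helix-loop-helix proteins bind. The Ankrd37 window holds 4 matches, of which the pair of GCGTG matches overlaps in 1 run. The Adm window holds 2, both GCGTG on the reverse strand. Hif1a, within 2-fold, has 3 matches, including 1 CACGTG, and P4ha1 also has 3. Egln1 has 2, Egln3 has 1, and of the 2 Vegfa windows 1 has 2 matches and the other has 0. At least 1 match was thus present in 8 of the 9 windows. These were windows of lower genes, of genes within 2-fold and of Egln3, which was not compared. Vegfa is among them through only 1 of its 2 windows, that of a start site further downstream in the gene (chr17:46025114-46025413, minus strand). The upstream Vegfa window (chr17:46032328-46032627) holds 0 matches. Among all 9684 windows of compared genes 63.2% hold either motif (26.3% ACGTG, 51.7% GCGTG), and 43.8% of all 32851 RefSeq windows do. A match is a run of letters, not a shown binding site.

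Most other genes of the oxygen-sensing machinery were within 2-fold, as were most genes. Of 16 regulators 13 were compared, 1 was lower and 0 were higher by at least 2-fold, beside 13.6% called over all compared genes. The median log2 ratio was 0.04. The lower one was Usp20, a deubiquitinase, at 16.7 in MMP9_KO and 40.1 in Control, 2.40-fold lower (2.20 to 2.63). It fell short of 2-fold after GC centring, and also when both libraries were scaled to one sum. Arnt, the partner of HIF alpha, was at 34.3 in MMP9_KO and 33.4 in Control, a fold of 1.03 (0.953 to 1.11). Vhl, the recognition subunit of the ubiquitin ligase, was at 8.79 in MMP9_KO and 10.2 in Control. Among the other ligase subunits, Cul2 was at 19.2 in MMP9_KO and 18.2 in Control, and Tceb1 (elongin C) at 12.97 in MMP9_KO and 12.5 in Control. Tceb2 (elongin B) was at 11.4 in MMP9_KO and 17.7 in Control, and Rbx1 at 12.8 in MMP9_KO and 18.7 in Control. These subunits were all within 2-fold, and the log2 ratio of Tceb2, -0.60 as reported, was -0.04 after GC centring. Hif1an, the asparaginyl hydroxylase that blocks HIF coactivation, was at 31.95 in MMP9_KO and 29.4 in Control. Egln2 (PHD1) was at 11.2 in MMP9_KO and 13.9 in Control. Cited2, which competes with HIF for its coactivators, was at 193 in MMP9_KO and 170 in Control. Epas1, which encodes HIF2 alpha, was below the level filter, with 11 reads in MMP9_KO and 27 in Control.

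Relatives of the members did not always follow them. Of 19 relatives and partners 12 were compared. By the 2-fold rule 2 were lower and 0 were higher, beside 9.58% and 4% of all compared genes. The median log2 ratio of these 12 was -0.35. Ndrg4 was at 9.53 in MMP9_KO and 104.5 in Control, 10.97-fold lower (9.90 to 12.2), while its relatives Ndrg1, Ndrg2 (88.6 in MMP9_KO and 116 in Control) and Ndrg3 (24.2 in MMP9_KO and 28.4 in Control) were within 2-fold. In the VEGF family, Vegfb was 3.33-fold lower (2.95 to 3.76), at 8.46 in MMP9_KO and 28.2 in Control, whereas Vegfa was slightly higher. Vegfc was at 6.82 in MMP9_KO and 8.77 in Control. Bnip3l, the mitophagy receptor closest to Bnip3, was at 18.5 in MMP9_KO and 33.6 in Control, 1.82-fold lower (1.66 to 1.99) and so within 2-fold. P4hb, the partner subunit of P4ha1, was at 747 in MMP9_KO and 1108 in Control, while the alternative subunits P4ha2 and P4ha3 had 0 reads each in MMP9_KO, and 6 and 3 reads in Control. Of the adrenomedullin receptor genes, Calcrl was at 10.3 in MMP9_KO and 6.63 in Control, 1.55-fold higher (1.33 to 1.81), and its cofactor Ramp2 at 18.0 in MMP9_KO and 19.5 in Control.

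Reported HIF targets outside the 10 genes and outside glycolysis went both ways. Of 36 listed 27 were compared, 7 were lower and 3 were higher by at least 2-fold, beside 9.58% and 4% of all compared genes. The median log2 ratio of the list was -0.51, beside -0.16 over all compared genes. The list median was -0.20 after GC centring, -0.28 after length centring and -0.29 with no filter on low values. Narf was 5.12-fold lower (4.23 to 6.25), at 3.02 in MMP9_KO and 15.5 in Control. The histone demethylase gene Kdm3a was at 20.5 in MMP9_KO and 71.0 in Control, the glycogen synthase gene Gys1 at 11.9 in MMP9_KO and 39.3 in Control, and the cyclin gene Ccng2 at 5.32 in MMP9_KO and 17.8 in Control. The lipid droplet gene Hilpda (2310016C08Rik in the table) was at 3.99 in MMP9_KO and 12.9 in Control, and the adenylate kinase gene Ak4 at 5.34 in MMP9_KO and 16.3 in Control. These 5 genes were thus 3.05-fold to 3.46-fold lower in MMP9_KO. The seventh, the transferrin receptor gene Tfrc, was named after its values were seen, at 238 in MMP9_KO and 598 in Control. In the other direction, the carbonic anhydrase gene Car12 was 4.09-fold higher (3.44 to 4.88), at 16.3 in MMP9_KO and 4.0 in Control. Stc2, also named after its values were seen, was at 3.40 in MMP9_KO and 0.770 in Control. It passed the level filter only through MMP9_KO, so a higher value there was partly built into the filter. Ddit4, an inhibitor of mTOR signalling, was at 5.56 in MMP9_KO and 3.73 in Control, within 2-fold.

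All 21 listed HIF targets of glucose uptake and glycolysis were compared. Of these 5 were lower and 1 was higher by the 2-fold rule, beside 9.58% and 4% of all compared genes. The log2 ratio was below 0 for 19 of them, as for 6971 of the 11126 compared genes. The list median was -0.51, or -0.22 after GC centring and -0.23 with equal sums. With the libraries scaled to a median ratio of 0, 2 rather than 5 were lower. Eno2 was 6.57-fold lower (5.24 to 8.31), at 2.11 in MMP9_KO and 13.9 in Control. Aldoc was at 20.7 in MMP9_KO and 56.7 in Control, and Hk1 at 86.4 in MMP9_KO and 189 in Control; Pfkl (50.95 in MMP9_KO and 106 in Control) and Pdk1 (24.8 in MMP9_KO and 51.0 in Control) were named after their values were seen. The glucose transporter gene Slc2a3 was 2.26-fold higher (2.03 to 2.51), at 28.7 in MMP9_KO and 12.7 in Control.

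**Figure D4:**
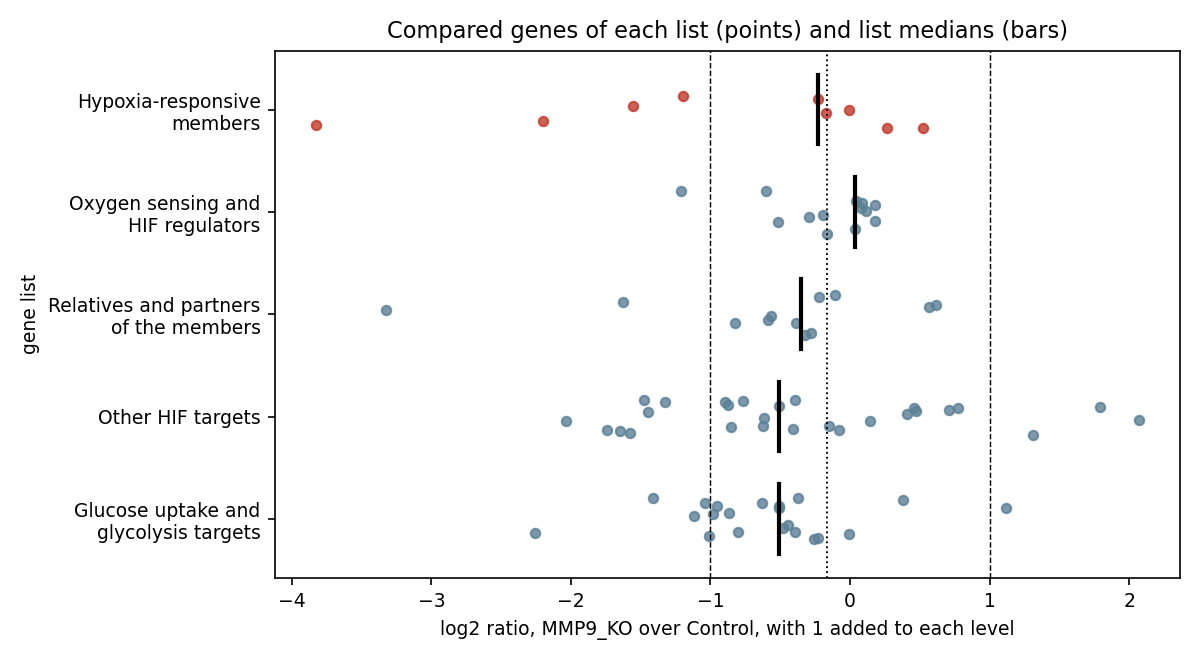
Log2 ratios (MMP9_KO over Control, with 1 added to each level) of the compared genes of 5 lists, 1 point per gene with vertical scatter for legibility, black bars at list medians, dashed lines at 2-fold and a dotted line at the median of all compared genes (-0.16). The members split into 4 genes left of the lower line and 5 around the dotted line, 12 of 13 regulators lie between the dashed lines (median 0.04), and both target lists have medians of -0.51 as reported (after GC centring -0.22 for the glycolysis list and -0.20 for the other targets) with points on both sides.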

How the data were processed

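Transcripts were measured in 1 MMP9_KO and 1 Control library. Reads were aligned with TopHat to build mm9, per the submitters' processing notes; which counting program, annotation, strand setting and normalisation were used is not given. The authors deposited log2 values under a file name that says normalised RPKM. On the linear scale these were whole multiples of a step (0.0238 in MMP9_KO, 0.0248 in Control; 99.99% of non-zero values in each within 0.05 of a whole read), whatever the gene's length, so they were treated as read numbers times a factor. The lowest value, 0.9 of a step, was set to 0.

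Genes averaging at least 1 were compared by log2((MMP9_KO + 1) / (Control + 1)), and called at 1 or more in size; with n = 1 no p-value exists. Folds carry no pseudocount and have exact binomial (Clopper-Pearson) intervals, levels exact Poisson intervals. GENCODE M21 (GRCm38) gave transcript length and GC content for 96.2% of compared genes, and BLAST 2.17.0 the near-identical transcripts. Python 3.11.15 with numpy 2.4.6, pandas 2.3.3 and scipy 1.17.1 was used. Step recovery and calls were tested on simulated data that held counting error only, with changes placed in genes with many reads. That simulation did not cover calls of members with few reads, such as Ankrd37, or variation between cultures.

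The members and the other lists were chosen with earlier results of these data known. The named genes are the 10 members, Mmp9, every compared regulator and relative, the 8 other targets with the largest log2 ratios in size plus Kdm3a and Ddit4, and 4 glycolysis targets chosen likewise, beside those said to be named later. The values of 1 gene that this rule names are not reported here.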

Additional observations from a re-analysis of the deposited data

How the results depend on the processing

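No paired analysis was possible because each genotype had 1 library. Leaving out a library would have left nothing to compare. Under 10 alternatives the number of members lower by at least 2-fold was 4 or 3, except that it was 2 with a pseudocount of 5, which by construction pulls low genes towards 0, and 2 with a mean of at least 5, which leaves out Adm and Ankrd37; 0 members were higher under any. Over all compared genes, a pseudocount of 5 gave 603 lower and 255 higher, equal sums 684 lower and 674 higher, and centring in bins of GC content 682 lower. The share of called genes that were higher was 29.5% as reported, 41.4% with a median of 0, 41.97% with a trimmed mean, 49.6% with equal sums, 44.5% after GC centring and 41.6% after length centring. The scalings raised the MMP9_KO levels by 0.18 (median of 0), 0.19 (trimmed mean) and 0.29 (equal sums) on the log2 scale. Bhlhe40 and Bnip3 were lower by at least 2-fold in all 11 settings and Hif1a and Vegfa were above 0 in all 11, whereas Egln1, Ndrg1 and P4ha1 changed sign with scaling. Depth limits Egln3, Adm and Ankrd37, with 0, 13 and 9 reads in MMP9_KO.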

Other observations

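Within the glucose genes, related isoenzymes and transporters differed unequally between the libraries; these pairs were picked after their values were seen and have no replicate check. Slc2a3 was 2.26-fold higher in MMP9_KO (2.03 to 2.51), whereas Slc2a1, the more abundant glucose transporter gene, had a fold of 0.701 (0.673 to 0.730). Hk1 was at 86.4 in MMP9_KO and 189 in Control, and Hk2 at 134 in MMP9_KO and 102 in Control. Per kilobase, Hk2 therefore stood above Hk1 in MMP9_KO (24.3 against 20.2) and below it in Control (18.6 against 44.1). Eno2 was 6.57-fold lower in MMP9_KO (5.24 to 8.31) and Eno1 1.18-fold lower (1.15 to 1.2). Among genes of protein oxidation and haem breakdown in the list of other targets, Ero1l was at 114.9 in MMP9_KO and 70.1 in Control, and Hmox1 at 64.8 in MMP9_KO and 37.5 in Control, both within 2-fold.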
